A study of Mus musculus with 10 samples.

Results

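Phagocytes that take up lipid and debris have to deal with peroxides and with iron, and the 43 genes described here encode the machinery for that: the NRF2 switch, the enzymes that remove superoxide and peroxides, the glutathione and thioredoxin systems, iron storage and transport, and the NADPH oxidase that makes superoxide. The rule lists the genes by name, as relevant to an oxidant injury of the retina, and uses no measured value, but the list was drawn up with earlier results of these data known. Of the 43, 39 were found in the gene table and 38 were abundant enough to be tested, out of 21869 genes kept and 11596 tested. Prdx3, Prdx6, Hmox1 and Hmox2 are not analysed here, and Gsta4 was too low to be tested.

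The RNA came from mouse retinal cells that were dissociated, stained for CD45, CD11b and CD36, and sorted as live, CD11b-positive cells with intermediate CD45, a gate the labels call microglia, the resident phagocytes of the retina. The gate was divided by CD36, a scavenger receptor for oxidized lipids and long-chain fatty acids, into 5 CD36-positive libraries (numbered 1, 2, 3, 4 and 7) and 5 CD36-negative libraries (1, 2, 4, 7 and 8). All sample titles carry the letters WT. The protocol shared by the series describes an intravenous dose of 20 mg/kg sodium iodate (NaIO3) in phosphate-buffered saline, or saline alone, with eyes taken at day 7. Sodium iodate is an oxidant that injures the retinal pigment epithelium. The labels do not say which of the treatments these 10 samples had, nor the age or sex of the mice or how many eyes went into a library. Nothing in the labels states that the libraries came from separate animals, so the p-values measure the spread between these samples, which may be technical.

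As background, NRF2 (encoded by Nfe2l2) is a transcription factor held at low levels by KEAP1, which marks it for destruction. Oxidants and electrophiles modify KEAP1, and NRF2 then pairs with small MAF proteins on antioxidant response elements, where BACH1 competes with it. Peroxiredoxins reduce peroxides and are recharged by thioredoxin, which thioredoxin reductase keeps reduced with NADPH, while glutathione peroxidases use glutathione, which glutathione reductase (GSR) regenerates. Ferritin stores iron in a form that cannot drive radical chemistry, the transferrin receptor imports it and ferroportin exports it.

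The control elements that several of these genes have in common are shown first. The core of the antioxidant response element, TGACNNNGC, was searched on both strands in the 250 bases before each RefSeq start (GRCm38.p6). It was found in 7 of the 35 members with a promoter entry (20.0%), against 11.5% of 27025 genes with an entry. Some genes have several starts: counted by promoter, it was in 7 of 48 member promoters (14.6%) and in 10.2% of all 32851. The members holding it were Nfe2l2, Prdx1, Txnrd1, Gclm, Mgst1, Ncoa4 and Sod1. The sites of 4 members with roles in NRF2 control, peroxide removal and glutathione synthesis are shown on the minus strand, with the core in capitals:
Prdx1 (chr4:116685450-116685490): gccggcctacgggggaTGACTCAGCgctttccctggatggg
Nfe2l2 (chr2:75704879-75704913): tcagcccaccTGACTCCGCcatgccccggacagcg
Txnrd1 (chr10:82859098-82859138): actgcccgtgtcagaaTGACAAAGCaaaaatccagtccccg
Gclm (chr3:122245407-122245447): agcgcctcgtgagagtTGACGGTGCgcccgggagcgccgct
The core lay 133 bases before the start in Prdx1, 240 in Nfe2l2, 92 in Txnrd1 and 134 in Gclm. Of the 7 members holding the core, Prdx1 and Nfe2l2 were higher in the CD36-positive libraries, Nfe2l2 only just past the threshold. Txnrd1, Gclm, Mgst1, Ncoa4 and Sod1 did not pass the test, as given further on. Over all tested members 13.2% were higher, and over all tested genes 2.61%. The share among all genes holding the core was not counted, and a link between the element and the sort was not tested. The windows of Txn1, Prdx4, Cybb and Gstp1 did not hold these letters, and Gsr had no promoter entry. A match is a description of the sequence and was not measured as a binding site here.

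Iron is sensed through another element, the iron responsive element, a hairpin in messenger RNA that iron regulatory proteins bind when iron is scarce. Bound near the start of a transcript it blocks translation, and bound near its end it protects the transcript from decay. A hairpin of 27 bases was searched in GENCODE M21 transcripts (GRCm38), with the loop letters CAGTGN after an unpaired C in the stem, the last loop base other than G, 5 of 5 upper stem pairs and at least 4 of 5 lower ones. It was found in 24 of 21877 protein-coding genes (0.11%) and in 4 members, shown here with the loop in capitals:
Fth1, 5′ UTR (chr19:9982733-9982759, plus strand): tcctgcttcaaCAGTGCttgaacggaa
Ftl1, 5′ UTR (chr7:45459780-45459806, minus strand): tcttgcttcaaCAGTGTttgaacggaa
Slc40a1, 5′ UTR (chr1:45925466-45925492, minus strand): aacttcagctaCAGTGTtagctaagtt
Tfrc, 3′ UTR (chr16:32631220-32631246, plus strand): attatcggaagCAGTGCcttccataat
Tfrc, 3′ UTR (chr16:32631711-32631737, plus strand): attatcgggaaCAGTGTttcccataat
Tfrc held 4 such hairpins, of which the outermost ones are shown. The ferritin transcripts and Slc40a1 carry the element near the start, so messenger RNA levels, the only quantity measured here, do not show their translation.

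Total counts per library ran from 5001692 to 13250984. Cd36 itself checked the sort: it stood at 252, 255, 234, 182 and 169.7 CPM (counts scaled to the size of the library, with TMM factors) in CD36-positive libraries 1, 2, 3, 4 and 7, and at 41.8, 54.9, 55.3, 48.8 and 50.8 in CD36-negative libraries 1, 2, 4, 7 and 8. The log2 fold change, here always positive over negative, was 2.12, SE 0.18, adjusted p = 1.45e-06. The first principal component, with 35.9% of the variance, separated the groups. On the second (15.9%), CD36-positive library 1 (75.4) stood opposite positive libraries 4 (-39.3) and 7 (-55.1). Positive library 3 stood apart on the third (12.3%), at -76.95. Other cell types moved with the sort. Of tested markers, 8 of 10 neutrophil, 7 of 11 monocyte, 11 of 13 dendritic cell and 5 of 7 T and NK cell genes were lower in CD36-positive libraries, and 0 of 12 microglial genes passed the test. Summed marker levels were 84.7 to 194 CPM in positive and 349 to 891 CPM in negative libraries for neutrophils, 554 to 1122 and 1413 to 2356 for monocytes, 202 to 471 and 1027 to 1289 for dendritic cells, and 15.8 to 51.4 and 79.3 to 375 for T and NK cells. The neutrophil genes Retnlg, Ly6g and G0s2 and the lymphocyte gene Prf1 had 0 counts in all 5 positive libraries. Ly6g and Prf1 were too low to be tested, and Ly6g had only 13 counts over all negative libraries. Cell cycle genes went the other way, with 12 of 18 higher and a summed level of 1378 to 2884 against 790 to 1537 CPM. Markers of border macrophages, the macrophages of vessels and membranes, went in both directions. Of 9 tested, 4 were higher (Ms4a7 with the smallest p), 1 was lower (F13a1) and 5 had a negative log2 fold change. They summed to 1431 to 1775 against 662 to 1402 CPM, with no overlap. Ms4a7 was the largest part of that sum, at a mean of 799 against 310 CPM. Cd163, Folr2 and Cbr2 had lower means in positive libraries without passing, and Mrc1 was level at 86.1 against 86.7 CPM. Immediate early genes, which dissociation and other handling can induce, were lower in 8 of 15, at 1189 to 1621 against 2191 to 2984 CPM. Endothelial and pericyte genes were lower in 2 of 3 (6.33 to 11.6 against 25.2 to 32.3 CPM). Of 9 photoreceptor genes, 1 was lower and all 9 had a negative log2 fold change, and of 8 genes of Müller glia and astrocytes 1 was higher and 2 were lower, with overlapping sums in both lists. The part of these cell types, of handling and of the cell cycle in the results below was not tested. In bulk samples, fewer cells of a type and less RNA per cell cannot be told apart.

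Among the 38 tested members, 5 were higher in CD36-positive libraries (13.2%) and 2 were lower (5.26%), at an adjusted p below the threshold of 0.05 in edgeR's quasi-likelihood test with Benjamini-Hochberg adjustment over all 11596 genes. Over all genes tested, 303 were higher (2.61%) and 550 lower (4.74%). The share of members that were lower was near the background, and the share that were higher was above it; no test of the list was made. The higher members were Prdx1, Prdx4, Txn1, Nfe2l2 and Cybb, and the lower ones Gsr and Gstp1. The remaining 31 did not pass the test, and over the 38 the median log2 fold change was 0.03 against 0.02 for all genes. In 3 members (7.89%) every CD36-positive library lay above every negative one (Nfe2l2, Txn1 and Cybb), which held for 2.59% of all genes. In 2 members (Gsr and Gstp1, 5.26%) every positive library lay below, which held for 5.82% of all genes.

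**Figure D1:**
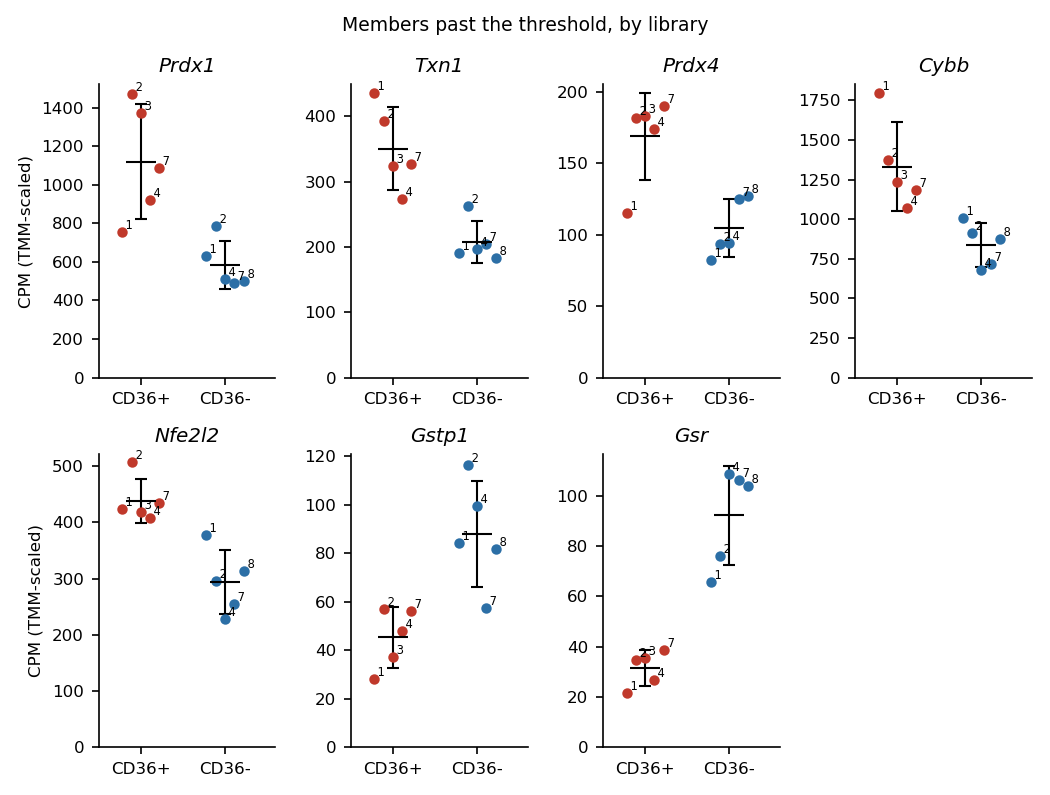
Level of the 7 members past the threshold in each library, in CPM on linear axes that start at 0, with CD36-positive libraries in red, CD36-negative in blue, numbers naming the libraries, and bars giving the mean and SD (n = 5 each). Prdx1 ranged from 756 to 1469 CPM in positive and from 489 to 786 CPM in negative libraries, while Gsr ranged from 21.6 to 38.8 CPM in positive and from 65.6 to 109 CPM in negative libraries.

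Of the 3 genes of NRF2 control, 1 passed the test. Nfe2l2 (chr2:75675513-75704641, minus strand), which encodes NRF2, stood at 423, 507, 418, 407 and 435 CPM in CD36-positive libraries 1, 2, 3, 4 and 7. In CD36-negative libraries 1, 2, 4, 7 and 8 it stood at 378, 297, 228, 255 and 313 CPM. Every positive library was above every negative one. The group means, given here and below as mean ± SD over 5 libraries, were 438 ± 39.9 against 294 ± 57.5 CPM, a log2 fold change of 0.58, SE 0.17, adjusted p = 0.0472 with a 95% interval of 0.22 to 0.93. This call lay near the threshold and was lost on leaving out any library but CD36-negative 1, with a log2 fold change of 0.47 to 0.60 and an adjusted p of 0.0505 to 0.166 in those 9 fits. It was also lost without the filter on low counts (0.56, adjusted p = 0.0939), without positive libraries 1 and 3 together (0.60, adjusted p = 0.0604) and with a covariate for detected genes (0.61, adjusted p = 0.0639). Keap1, whose product holds NRF2 in check, was at 75.5, 56.3, 53.2, 82.8 and 61.3 CPM in the positive and 41.3, 33.3, 72.0, 60.2 and 56.5 CPM in the negative libraries, in the same order, and the groups overlapped; its log2 fold change was 0.32, SE 0.23, adjusted p = 0.457. Bach1, the competitor, was at 53.4 ± 22.8 against 43.3 ± 7.54 CPM (log2 fold change 0.30, SE 0.27, adjusted p = 0.582). No difference in Keap1 or Bach1 passed the test, and the interval for Keap1 ran from -0.16 to 0.80.

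None of the 3 genes for superoxide dismutases and catalase passed the test. Sod1, the cytosolic superoxide dismutase, was at 525 ± 132 against 589.6 ± 80.8 CPM and Sod2, its mitochondrial counterpart, at 84.4 ± 11.7 against 96.4 ± 8.53 CPM. Catalase (Cat), the peroxisomal enzyme that breaks down hydrogen peroxide, was at 81.3 ± 12.8 against 106 ± 18.7 CPM. Their log2 fold changes were -0.17, -0.19 and -0.39, with the interval for Cat running from -0.78 to 0.00.

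All 4 measured peroxiredoxins had a positive log2 fold change, and 2 of them passed the test. Over all 11596 genes tested, 5940 had a positive log2 fold change. Prdx1 (chr4:116685544-116700822, plus strand), an abundant cytosolic peroxiredoxin and a classical NRF2 target, stood at 756, 1469, 1371, 919 and 1088 CPM in CD36-positive libraries 1, 2, 3, 4 and 7. The negative libraries 1, 2, 4, 7 and 8 held 633, 786, 512, 489 and 503 CPM. All positive libraries but library 1 were above all negative ones, and positive library 1 lay just under negative library 2. The means were 1120.4 ± 299.6 against 585 ± 126 CPM, 1.92 times as high, with a log2 fold change of 0.94, SE 0.21, adjusted p = 0.00929 and a 95% interval of 0.50 to 1.38. Prdx1 stayed past the threshold in all 23 alternative fits, at log2 fold changes of 0.69 to 1.07. Prdx4 (chrX:155323918-155340754, minus strand), the peroxiredoxin of the endoplasmic reticulum, was at 115, 181, 183, 174 and 189.9 CPM in the positive and 82.6, 93.8, 94.2, 125 and 127 CPM in the negative libraries. Positive library 1 stood well below the other 4 positive libraries and below negative libraries 7 and 8. Prdx4 had a log2 fold change of 0.69, SE 0.19, adjusted p = 0.0349. That call was lost without positive library 2, 3, 4 or 7 or negative library 1, 2 or 4, with a log2 fold change of 0.61 to 0.68 and an adjusted p of 0.0614 to 0.119. A covariate for detected genes (0.67, adjusted p = 0.0754) and a correction for GC content and length (0.55, adjusted p = 0.0878) ended it too. Prdx2 was at 169.9 ± 18.5 against 150.2 ± 22.6 CPM (log2 fold change 0.18, SE 0.17, adjusted p = 0.594) and Prdx5 at 306 ± 100.2 against 248 ± 12.2 CPM (log2 fold change 0.30, SE 0.21, adjusted p = 0.445). For Prdx5, leaving out positive libraries 1 and 3 together moved the log2 fold change to 0.60 (adjusted p = 0.0168).

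In the thioredoxin system, 1 of 4 genes passed. Txn1 (chr4:57943373-57956411, minus strand), the cytosolic thioredoxin that recharges peroxiredoxins, was at 436, 392.1, 324, 273 and 328 CPM in CD36-positive libraries 1, 2, 3, 4 and 7. It was at 191, 262, 197, 205 and 182 CPM in negative libraries 1, 2, 4, 7 and 8. The groups did not overlap, the lowest positive library (4) lying just above the highest negative library (2). The log2 fold change was 0.76, SE 0.18, adjusted p = 0.0122, and the adjusted p was 0.0508 without negative library 4 (log2 fold change 0.71). The other members of the system did not pass. Txnrd1, the reductase that feeds Txn1, was at 52.9 ± 13.6 against 51.3 ± 9.59 CPM (log2 fold change 0.05, SE 0.22, adjusted p = 0.929), and Srxn1, which repairs overoxidized peroxiredoxins, at 15.8 ± 4.49 against 14.05 ± 5.31 CPM (log2 fold change 0.17, SE 0.34, adjusted p = 0.825). Mitochondrial Txn2 was at 88.0 ± 20.3 against 129 ± 22.3 CPM, with a log2 fold change of -0.55, SE 0.20, adjusted p = 0.106. Leaving out positive library 2 put Txn2 past the threshold (log2 fold change -0.71, adjusted p = 0.0439).

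Of the 6 genes for glutathione synthesis, recycling and peroxidases, 1 was lower and 0 were higher. Gsr (chr8:33652523-33698163, plus strand), which returns oxidized glutathione to its reduced form, had the lowest p of the 38 members. It stood at 21.6, 34.7, 35.4, 26.9 and 38.8 CPM in CD36-positive libraries 1, 2, 3, 4 and 7 and at 65.6, 76.1, 109, 106 and 104 CPM in negative libraries 1, 2, 4, 7 and 8. Every positive library lay below every negative one. The means were 31.5 ± 7.02 against 92.1 ± 19.8 CPM, a log2 fold change of -1.55, SE 0.22, adjusted p = 0.000233 with a 95% interval of -2.01 to -1.08. All 23 alternative fits kept the call, at log2 fold changes of -1.65 to -1.45. The markers of neutrophils, monocytes and dendritic cells were lower in the same libraries, by the summed levels given above, and their part in the Gsr difference was not tested.

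The other 5 genes of this group did not pass. Gclc and Gclm, the catalytic and modifier subunits of the enzyme that limits glutathione synthesis, were at 34.4 ± 11.8 against 30.6 ± 9.54 CPM and 24.0 ± 8.34 against 21.4 ± 5.75 CPM. Their log2 fold changes were 0.17 and 0.17. Gss, which completes the synthesis, was at 16.8 ± 4.31 against 22.2 ± 3.86 CPM (log2 fold change -0.40, SE 0.27, adjusted p = 0.424). Gpx4, the peroxidase that reduces lipid peroxides within membranes, was at 195, 322, 225, 263 and 297 CPM in the positive and 292, 380.4, 391.7, 254 and 291 CPM in the negative libraries, and the groups overlapped. Its log2 fold change was -0.31, SE 0.19, adjusted p = 0.37, with an interval of -0.70 to 0.09. Gpx1, the cytosolic glutathione peroxidase, was at 985 ± 219 against 1295 ± 174 CPM (log2 fold change -0.39, SE 0.18, adjusted p = 0.225).

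Among the glutathione transferases, 1 of 4 tested genes was lower. Gstp1 (chr19:4035407-4037985, minus strand), which joins glutathione to electrophiles, was at 28.3, 57.0, 37.2, 48.0 and 56.2 CPM in CD36-positive libraries 1, 2, 3, 4 and 7. Negative libraries 1, 2, 4, 7 and 8 held 84.2, 116, 99.4, 57.4 and 81.7 CPM. The groups did not overlap, but positive library 2 and negative library 7 were nearly level. For Gstp1 the log2 fold change was -0.95, SE 0.24, adjusted p = 0.0198. Without positive library 3 or negative library 2 or 4 the call was lost, at a log2 fold change of -0.92 to -0.83 and an adjusted p of 0.0508 to 0.0612, and also without positive libraries 1 and 3 together (-0.72, adjusted p = 0.0712). Gstp1 has a near-identical neighbour, Gstp2, and its counts were fractional in all 10 libraries, so reads may have been split between the pair and its level is uncertain. Summed, the pair stood at 51.2, 59.4, 50.7, 50.8 and 63.2 CPM in positive and 87.0, 120.4, 104, 62.1 and 84.5 CPM in negative libraries. Positive library 7 then lay above negative library 7, and the log2 fold change was -0.74 (adjusted p = 0.0318). Gsto1 was at 115 ± 44.7 against 169 ± 21.9 CPM (log2 fold change -0.56, SE 0.25, adjusted p = 0.209), the microsomal Mgst1 at 10.7 ± 4.65 against 17.7 ± 6.37 CPM (log2 fold change -0.72, SE 0.37, adjusted p = 0.282) and Gstm1 at 24.8 ± 13.8 against 22.8 ± 6.32 CPM (log2 fold change 0.12, SE 0.36, adjusted p = 0.885). None of these 3 passed. Gsta4 had 1, 12, 2, 3 and 0 counts in the positive and 15, 4, 19, 0 and 19 counts in the negative libraries.

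No tested gene among the further NRF2 target enzymes and adaptors (3 tested) passed. Nqo1, a quinone reductase often read as a gauge of NRF2 activity, had 18, 12, 8, 1 and 14 counts in the positive and 15, 22, 1, 0 and 26 counts in the negative libraries. At this depth its log2 fold change of 0.26 had an interval of -1.95 to 2.46, so a difference of several fold in either direction was not detectable. Osgin1 was at 19.8 ± 10.9 against 23.2 ± 7.19 CPM (log2 fold change -0.22, SE 0.36, adjusted p = 0.789). Sqstm1, the autophagy adaptor p62, which binds KEAP1, was at 298 ± 94.0 against 439 ± 106 CPM (log2 fold change -0.56, SE 0.22, adjusted p = 0.153), and it passed the threshold when positive library 7 was left out (log2 fold change -0.75, adjusted p = 0.0451).

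None of the 7 genes of iron storage and transport passed the test. Fth1, the ferritin heavy chain that oxidizes iron for storage, was at 5419, 8836, 8338, 8766 and 11188 CPM in CD36-positive libraries 1, 2, 3, 4 and 7 and at 6550.1, 8106, 8993, 8162 and 6279 CPM in negative libraries 1, 2, 4, 7 and 8. Ftl1, the light chain, was at 3294, 9004, 6929, 7196 and 8999.5 and 5344, 6038, 7946, 6838 and 5778 CPM in the same order. Positive library 1 was the lowest for both chains and the other positive libraries overlapped the negative ones. Together the ferritin chains made up 0.871%, 1.78%, 1.53%, 1.596% and 2.02% of scaled counts in the positive libraries and 1.19%, 1.41%, 1.69%, 1.5% and 1.21% in the negative ones. The log2 fold changes were 0.16, SE 0.21, adjusted p = 0.717 for Fth1 and 0.15, SE 0.24, adjusted p = 0.78 for Ftl1, with intervals of -0.27 to 0.59 and -0.36 to 0.66. Ftl1 counts were fractional in every library, so reads shared with near-identical copies may be split. Scaled to the length of the transcript, Ftl1 (6959 CPM per kb) and Fth1 (5397 CPM per kb) were the most abundant members over the 10 libraries, followed by Cyba at 1217 and Gpx1 at 1064 CPM per kb.

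**Figure D2:**
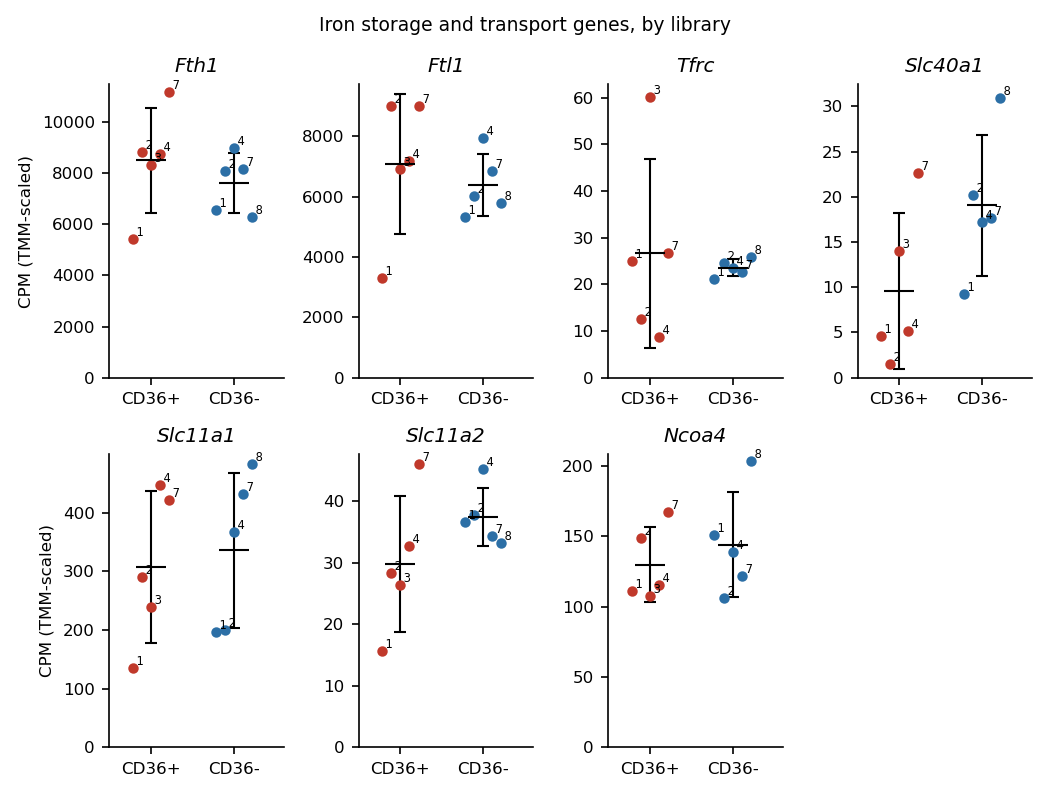
Level of the iron storage and transport genes in each library, in CPM, with CD36-positive libraries in red and CD36-negative in blue, numbers naming the libraries, and bars giving the mean and SD (n = 5 each). The groups overlap in every panel, and Tfrc in CD36-positive library 3 stands at 60.2 CPM.

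Per length, Tfrc (5.14 CPM per kb) and Slc40a1 (4.25 CPM per kb) were far below ferritin. Tfrc, the transferrin receptor, was at 25.1, 12.5, 60.2, 8.78 and 26.8 CPM in the positive and 21.1, 24.6, 23.5, 22.8 and 25.8 CPM in the negative libraries. The negative libraries lay close together while positive library 3 was above all others. The log2 fold change was 0.18, SE 0.39, adjusted p = 0.844, and without positive library 3 it was -0.36 (adjusted p = 0.616). Erythroid genes (7 listed, 4 tested, 0 passing) summed to 2288 CPM in positive library 3 and 758 CPM in negative library 1, against 4.80 to 23.6 CPM in the other 8 libraries, and the part of red cell precursors in the Tfrc level was not tested. Slc40a1, the iron exporter ferroportin, was at 4.65, 1.47, 14.04, 5.18 and 22.6 CPM in the positive and 9.26, 20.2, 17.2, 17.6 and 30.9 CPM in the negative libraries. The lowest 3 values of all belonged to positive libraries 1, 2 and 4, while positive library 7 lay above 4 of the negative libraries. Its log2 fold change was -0.98, SE 0.55, adjusted p = 0.322 with an interval of -2.13 to 0.17, and a fit with a term for how many genes each library detected put it past the threshold (-2.11, adjusted p = 0.034). Slc11a1, the phagosomal metal transporter NRAMP1, was at 307 ± 129.6 against 336 ± 132 CPM (log2 fold change -0.13, SE 0.31, adjusted p = 0.856). Slc11a2, which carries iron out of endosomes, was at 29.8 ± 11.1 against 37.4 ± 4.69 CPM (log2 fold change -0.32, SE 0.26, adjusted p = 0.516), and Ncoa4, the receptor that delivers ferritin for breakdown, at 129.8 ± 26.5 against 144 ± 37.1 CPM (log2 fold change -0.15, SE 0.20, adjusted p = 0.736).

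Of the 4 subunits of the NADPH oxidase, 1 was higher. Cybb (chrX:9435252-9487771, minus strand), the catalytic subunit NOX2 of the phagocyte oxidase, was at 1795, 1372, 1234, 1074 and 1184 CPM in CD36-positive libraries 1, 2, 3, 4 and 7. In negative libraries 1, 2, 4, 7 and 8 it was at 1011, 916, 679, 719 and 875 CPM. The lowest positive library (4) was above the highest negative library (1). For Cybb the log2 fold change was 0.66, SE 0.18, adjusted p = 0.0357. That call was lost without positive library 1, 2 or 3 or negative library 2, 4, 7 or 8, at a log2 fold change of 0.52 to 0.69 and an adjusted p of 0.0508 to 0.133. It was also lost without the filter on low counts (0.64, adjusted p = 0.0524), without positive libraries 1 and 3 together (0.52, adjusted p = 0.0993) and with a correction for GC content and length (0.46, adjusted p = 0.0754). Its membrane partner Cyba was nearly level at 908 ± 287 against 904 ± 129.9 CPM (log2 fold change 0.01, SE 0.22, adjusted p = 0.989, interval -0.45 to 0.47). The cytosolic organizer Ncf1 was at 507 ± 90.6 against 639 ± 66.3 CPM (log2 fold change -0.34, SE 0.17, adjusted p = 0.265) and Ncf4 at 144 ± 36.9 against 137 ± 11.2 CPM (log2 fold change 0.08, SE 0.19, adjusted p = 0.851), and no subunit but Cybb passed the test. Of 9 tested border macrophage markers, 4 were higher in the same libraries and 1 was lower. Of the 9, 5 had a negative log2 fold change, and the median was -0.01. Their summed level, of which Ms4a7 was the largest part, was higher, as given above. The part of border macrophages in the Cybb difference was not tested.

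**Figure D3:**
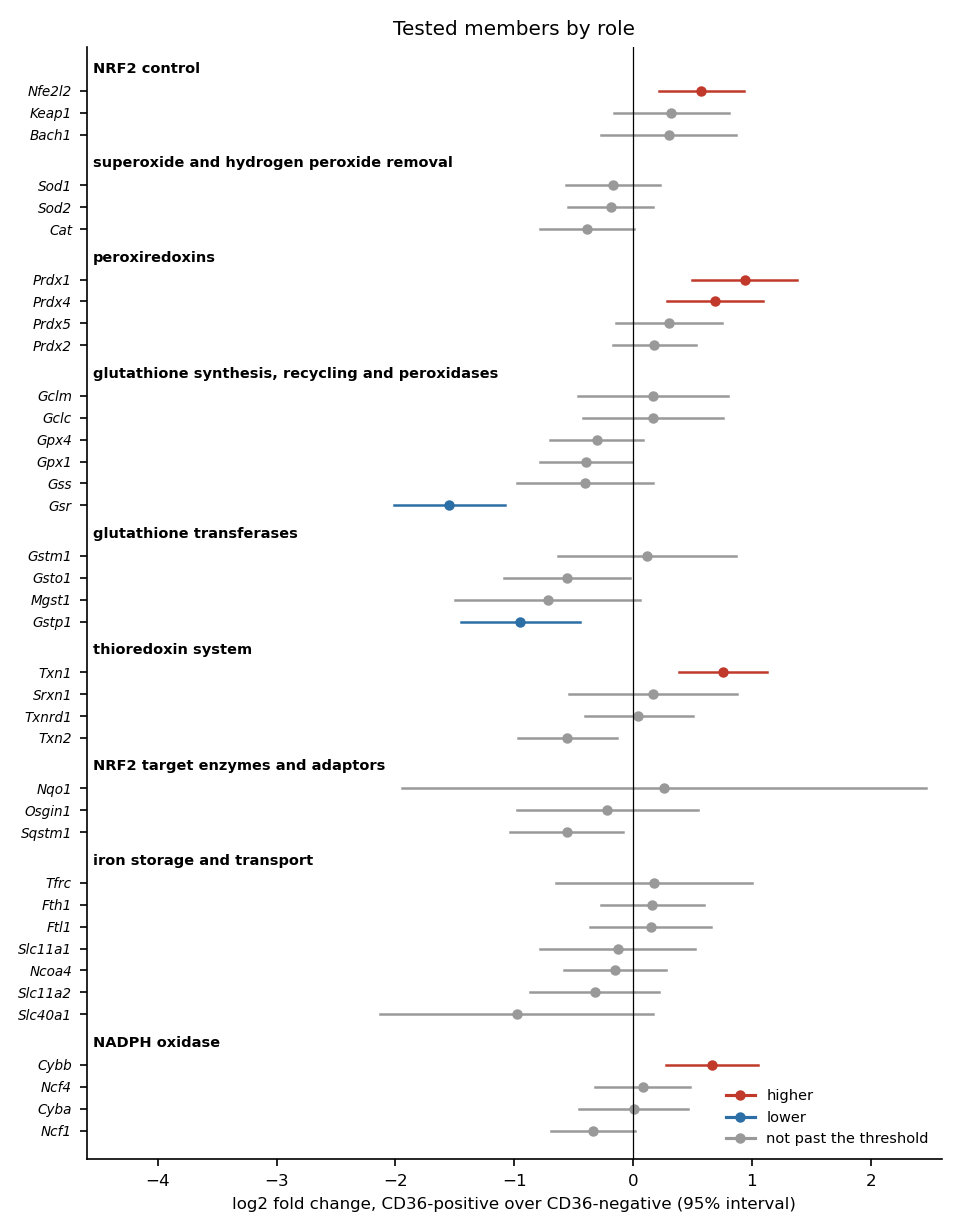
Log2 fold change (CD36-positive over CD36-negative) of the 38 tested members with 95% confidence intervals, grouped by role; filled colours mark members past the adjusted p threshold of 0.05. The 7 called members lie between -1.55 (Gsr) and 0.94 (Prdx1), and Nqo1 has the widest interval.

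The libraries also differed in Y-linked transcripts. The summed level of 3 such genes was 184 to 324 CPM in 5 libraries (positive 1, 2 and 3, negative 1 and 2) and 18.4 to 57.6 CPM in the other 5. The ratio of positive to negative means was 1.69 and 2.0 for Prdx1, 1.81 and 1.58 for Prdx4, 1.69 and 1.54 for Txn1, 1.33 and 1.59 for Nfe2l2, and 1.52 and 1.49 for Cybb, in the high and the low set in turn. It was 0.431 and 0.309 for Gsr and 0.407 and 0.655 for Gstp1. These values only describe the sets: 5 of the 7 members do not overlap over all 10 libraries, so their direction within any set was fixed beforehand. With 2 or 3 libraries a side they were not tested.

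To see how the rest of these pathways behaved, 109 further genes of the same systems were listed. Of these, 106 were in the table and 92 were tested, with 4 higher (4.35%) and 4 lower (4.35%) in CD36-positive libraries, against 2.61% and 4.74% of all genes; the median log2 fold change was -0.08.

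Blvrb, a reductase of biliverdin and flavins downstream of heme breakdown, was at 96.4, 129, 98.4, 107 and 135 CPM in positive and 56.4, 49.2, 70.1, 54.6 and 52.9 CPM in negative libraries, with no overlap (log2 fold change 1.00, SE 0.18, adjusted p = 0.00198). Glrx, the cytosolic glutaredoxin that uses glutathione to reduce protein disulfides, was at 178, 179, 129, 141 and 157 and 98.8, 91.0, 76.4, 78.0 and 78.2 CPM, again without overlap (log2 fold change 0.89, SE 0.17, adjusted p = 0.00284). Both kept the call in every alternative fit. Sesn1, a sestrin, was at 221, 174, 116, 219 and 262 and 106, 103, 130.3, 123 and 125 CPM, with positive library 3 inside the negative range. The log2 fold change of Sesn1 was 0.76, SE 0.20, adjusted p = 0.0301, and its call was lost in 8 of the 10 fits without a library (all but positive 2 and 3), at 0.63 to 0.78 with an adjusted p of 0.0534 to 0.078, and with a covariate for detected genes (0.67, adjusted p = 0.0803). Chac2, a glutathione-degrading enzyme, was low at 11.4 ± 1.56 against 4.08 ± 1.34 CPM (log2 fold change 1.48, SE 0.42, adjusted p = 0.0391), and its call was lost in 9 of those 10 fits (all but positive 1), at 1.34 to 1.61 with an adjusted p of 0.0521 to 0.0994, and in most other alternatives, down to 1.01 (adjusted p = 0.159) with a correction for GC content and length.

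On the other side, Mafk, a small MAF partner of NRF2 and BACH1, was at 15.8, 16.6, 12.5, 21.96 and 13.7 CPM in positive and 33.4, 32.1, 36.2, 30.4 and 38.6 CPM in negative libraries, with no overlap (log2 fold change -1.08, SE 0.24, adjusted p = 0.00831). Txnip, the inhibitor of thioredoxin, was at 306 ± 28.4 against 460.4 ± 60.1 CPM (log2 fold change -0.59, SE 0.16, adjusted p = 0.0289), and leaving out positive library 2, 3 or 4 or negative library 1 or 8 ended its call, at -0.60 to -0.54 with an adjusted p of 0.0522 to 0.0817, as did dropping the filter on low counts (-0.60, adjusted p = 0.0568). Txn1 and Txnip thus differed in opposite directions between the same groups.

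Haptoglobin (Hp), which binds free hemoglobin, was at 33.6, 63.2, 63.9, 49.9 and 82.7 CPM in negative libraries and at 0.186, 2.48, 0, 0 and 0 CPM in positive ones. That was 23 counts over all positive libraries against 3112 over all negative ones, with a log2 fold change of -6.72, SE 0.77, adjusted p = 2.51e-05 that moved to -10.43 when positive library 2 was left out (adjusted p = 1.44e-07). Lcn2, which captures iron-loaded siderophores and is also in the neutrophil list, had 18 counts against 273 (log2 fold change -3.60, SE 0.97, adjusted p = 0.0299), and its call was lost without positive library 3 or 4 or negative library 2, 4, 7 or 8, at -3.75 to -3.07 with an adjusted p of 0.0512 to 0.128, and in limma voom with quality weights (-4.07, adjusted p = 0.057). Markers of neutrophils (8 of 10, Lcn2 among them), monocytes (7 of 11), dendritic cells (11 of 13) and T and NK cells (5 of 7) were lower in the same libraries. Their summed levels are given above, and the part of these cells in the Hp and Lcn2 differences was not tested.

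**Figure D4:**
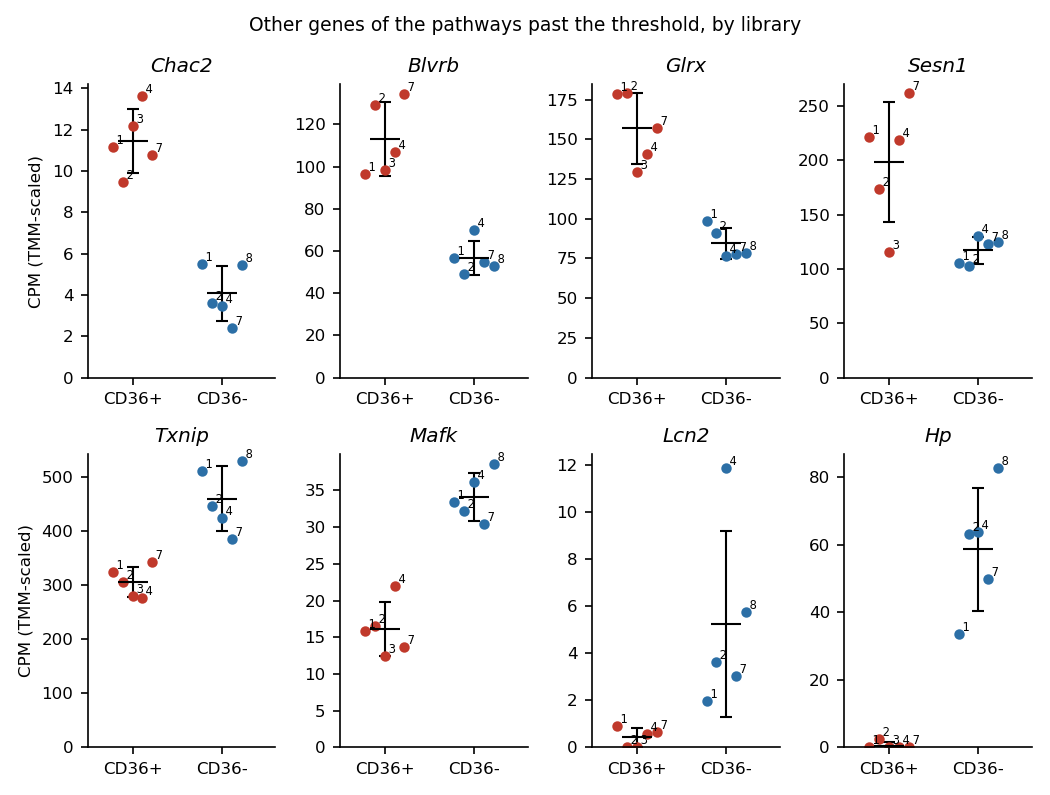
Level of the 8 other pathway genes past the threshold in each library, in CPM on linear axes, with CD36-positive libraries in red, CD36-negative in blue, numbers naming the libraries, and bars giving the mean and SD (n = 5 each). Hp is at 0 in 3 of the 5 positive libraries and between 33.6 and 82.7 CPM in the negative ones.

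By system, the counts were 1 higher and 1 lower of 22 tested for NRF2 partners and NADPH supply (Blvrb, Mafk), 2 and 0 of 18 for glutathione (Glrx, Chac2), 1 and 1 of 13 for thioredoxin, peroxide and methionine sulfoxide genes (Sesn1, Txnip), and 0 and 2 of 25 for iron and heme (Hp, Lcn2). None of 5 NADPH oxidase genes and none of 9 guards against lipid peroxidation passed. Among those that did not pass were the cystine importer Slc7a11 (log2 fold change -0.35, SE 0.84, adjusted p = 0.856), the source of cysteine for glutathione, and Acsl4 (log2 fold change 0.24, SE 0.19, adjusted p = 0.518), which loads membranes with oxidizable fatty acids. The iron regulatory protein genes Aco1 (log2 fold change -0.16, SE 0.21, adjusted p = 0.72) and Ireb2 (log2 fold change 0.37, SE 0.30, adjusted p = 0.522) did not pass either.

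**Figure D5:**
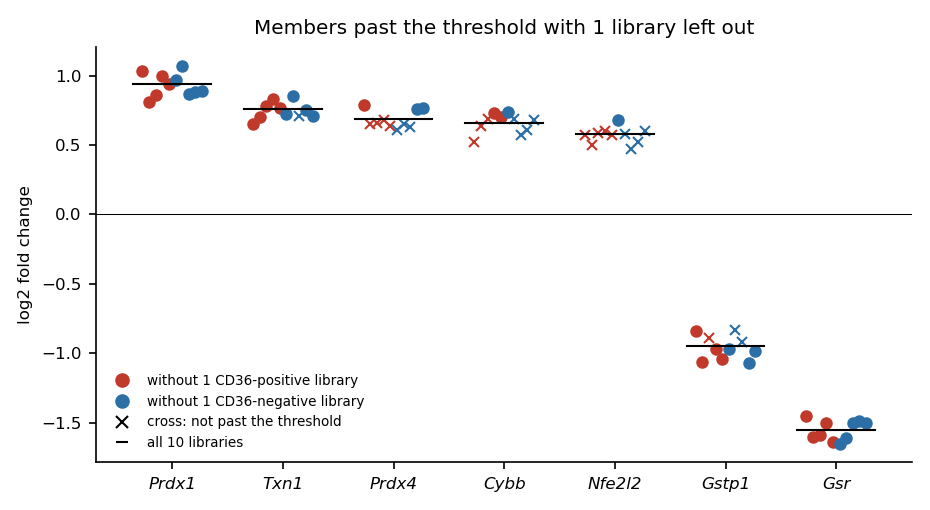
Log2 fold change of the 7 called members in the fit of all 10 libraries (black lines) and in the 10 fits that leave out 1 library each. Filled circles mark left-out fits past the adjusted p threshold of 0.05, and crosses those not past it. Prdx1 and Gsr have filled circles in every left-out fit, whereas Nfe2l2 has a filled circle only without CD36-negative library 1.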

How the data were processed

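RNA was measured by RNA sequencing in 10 libraries of sorted cells. The authors deposited estimated counts by gene symbol, without normalization, of which 91.9% were whole numbers, per the file headers and values. Build mm10 and the tools StringTie 1.3.1, HISAT2 2.1.0, Bowtie2 2.2.8 and fastp 0.18.0 are named, per the submitters' processing notes; what each did, the counting program and its use of strand are not given in the sources used here, so reads of overlapping antisense genes cannot be told apart. Of 22008 lines, 8 damaged and 131 repeated ones were removed, and 21869 genes remained, 2033 of them at 0 throughout.

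Groups and library numbers follow the description label; the titles number the samples differently. Counts were rounded, and filterByExpr (minimum count 10) chose 11596 genes. After TMM scaling, edgeR 4.0.16 in R 4.3.3 fitted a quasi-likelihood model (glmQLFit, glmQLFTest) on the sort alone, and Benjamini-Hochberg adjusted p-values were read at 0.05. CPM values use TMM-scaled library sizes. On the unscaled library totals, 3 counts correspond to 0.226 to 0.6 CPM per library. Intervals are 95% intervals. The procedure was also run on simulated counts drawn independently for each library. These held no pairing and no differences in cell types between libraries, so that run does not bear on either. Alternatives used DESeq2 1.42.0, limma 3.58.1, other filters, covariates and left-out libraries. Summing Gstp1 with Gstp2 was chosen after seeing the data.

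The members and lists were chosen with earlier results of these data known. Every member is accounted for; values in every library are given for members past the threshold and for Nfe2l2, Keap1, Gpx4, Fth1, Ftl1, Tfrc, Slc40a1 and Cybb, and further pathway genes are named where they passed, with a few that did not chosen for their role after their values were seen. Length-scaled levels use the longest coding transcript in GENCODE M21. The single-cell and spatial data were not analysed here.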

Additional observations from a re-analysis of the deposited data

Results flagged for a closer look

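Among 78 groups of 5 libraries (the members in each of the sorts), 5 held a library far from the other 4; chance gives about 1 in 20. Nfe2l2 was at 507 CPM in CD36-positive library 2 and at 407 to 435 CPM in the other positive libraries. Prdx4 was at 115 CPM in CD36-positive library 1, against 174 to 189.95 CPM in the others, and Srxn1 at 23.5 CPM in CD36-positive library 4, against 12.2 to 15.1 CPM. Gsta4 was at 1.35 CPM in CD36-positive library 2 (12 counts) and at 0 to 0.338 CPM in the others. In the CD36-negative libraries, Txn1 was at 262 CPM in library 2, against 182 to 205 CPM in the others.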

How the results depend on the processing

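Across 23 alternatives no called member changed direction, and Prdx1 and Gsr, with the pathway genes Blvrb, Glrx and Hp, stayed past the threshold in all. The count of members higher (5 as reported) was 3 without the filter on low counts, 3 with a covariate for detected genes, 3 with a GC content and length correction, and 1 at an adjusted p of 0.01; leaving out 1 library gave 1 (without CD36-negative 4) to 4. The count of members lower (2) was 1 without CD36-positive libraries 1 and 3 and 1 at 0.01, and 1 to 3 on leaving out 1 library. Other pathway genes higher (4) became 2 with the detected-genes covariate and 2 at 0.01, and 2 to 3 on leaving out 1 library; those lower (4) became 2 at 0.01 and 2 to 5. With the replicate block by description number, 4 members were higher and 1 lower: Nfe2l2 (0.64, adjusted p = 0.0828) and Gstp1 (-0.92, adjusted p = 0.0732) lost their calls. So did Chac2 (1.63, adjusted p = 0.111), Mafk (-0.97, adjusted p = 0.0682), Txnip (-0.50, adjusted p = 0.163) and Lcn2 (-3.24, adjusted p = 0.156), which left 1 other pathway gene lower; over all genes 184 were higher and 466 lower, against 303 and 550. Samples with the same number correlated at 0.029 to 0.133, and of the 4 numbers only number 2 paired a positive library with its best match. By Y-linked level, however, numbers 1 and 2 fell in the high set in both sorts, and numbers 4 and 7 in the low set. The labels state no pairing and the main fit used none, so whether same-numbered libraries belong together is not known. DESeq2's Wald test called 533 genes higher and 743 lower, and leaving out CD36-negative library 4 left 132 and 422. Of the 31 members that did not pass, 4 passed under an alternative (Prdx5, Txn2, Sqstm1 and Slc40a1) and 13 changed sign without passing. Depth limits Nqo1 and Gsta4.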

Other observations

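Slc11a1, the phagosomal metal transporter, varied more among the libraries of a sort than between the sorts. In the 5 libraries with 184 to 324 CPM of summed Y-linked transcripts it was at 135 to 290.2 CPM, and in the 5 with 18.4 to 57.6 CPM it was at 367 to 482 CPM. The ratio of CD36-positive to CD36-negative means was 1.12 in the former and 1.02 in the latter. It was the only 1 of 38 tested members (2.63%) for which all libraries of the former set lay below all of the latter, which held for 235 of 11596 genes (2.03%). Summed microglial markers were 8498 to 14016 CPM in the former and 13203 to 19968 CPM in the latter. These sets were formed from the data, and the pattern was noticed after the values were seen and was not tested.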
